A study of Mus musculus with 20 samples.

Results

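The 8 genes of the Notch pathway described here are the receptors Notch1 and Notch2, the DNA-binding factor Rbpj, and the targets or regulators Dtx1, Hes1, Hes5, Heyl and Nrarp. They were selected by name from the 31053 genes of each matrix, and their levels in B cells had been seen when they were chosen, so those levels are given as a description. A cell was taken as a B cell when it held at least 3 unique molecular identifiers (UMIs) of Cd79a and Cd79b together, no UMI of Cd3d, Cd3e or Cd3g, and under 20 UMIs of Jchain. This rule found 30890 B cells among 84231 cells kept, with 195 to 5136 B cells per library. As a contrast, 25342 T cells were taken as cells with at least 3 UMIs of the Cd3 genes together and none of Cd79a or Cd79b, with 46 to 3997 per library.

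Single-cell RNA-sequencing (scRNA-seq) counts came from 20 libraries of 13 mice labelled C57BL/6N. The spleens were from 5 Eµ-PRMT5 mice (transgene Eµ-hPRMT5), 4 Eµ-TCL1 mice (Eµ-hTCL1) and 4 Eµ-PRMT5/TCL1 mice (Eµ-hPRMT5/hTCL1), and the lymph nodes were from 3 of the Eµ-TCL1 and all 4 of the Eµ-PRMT5/TCL1 mice. Every mouse carried a human transgene driven in B cells by an immunoglobulin heavy chain enhancer, no wild-type library was analysed here, and tissue was taken when a mouse met euthanasia criteria, so age was not matched and is not given in the labels. The Eµ-PRMT5 transgene was made in more than 1 founder, and the study names the line it characterized and crossed to Eµ-TCL1, though not mouse by mouse for these libraries. The title of Eµ-PRMT5 spleen 3 bears a founder's name. Eµ-TCL1 mice develop a leukemia that resembles chronic lymphocytic leukemia (CLL), in which 1 B-cell clone can make up most B cells.

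Notch receptors are cut after a ligand on a neighbouring cell binds them, and the freed intracellular part enters the nucleus, where it joins Rbpj on DNA and turns on targets such as the Hes and Hey repressors. Dtx1 encodes a ubiquitin ligase that acts on the pathway and is itself a Notch target, and Nrarp encodes an ankyrin repeat protein that limits Notch activity. In the spleen, Notch2 is required for marginal zone B cells, whereas Notch1 directs early thymocytes to the T-cell lineage. Activating changes of NOTCH1 recur in human CLL.

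Rbpj binds a short sequence whose core is TGGGAA, with GTGGGAA as a stronger form. These letters were searched on both strands in 300-base RefSeq promoter windows (GRCm38.p6, 250 bases before to 50 after a start site), of which the table held 7 for 6 of the 8 genes. TGGGAA or its reverse TTCCCA occurred in 25.6% of 32851 windows of that length, and GTGGGAA or TTCCCAC in 6.38%, and each longer match overlaps a shorter one. The 250 bases before the start site are shown for Hes5 and Dtx1, which were high in B cells and low in T cells, and for Nrarp, which had the opposite pattern. They lie at chr4:154960673-154960922 on the plus strand, chr5:120711670-120711919 on the minus strand and chr2:25180508-25180757 on the plus strand. The windows follow RefSeq start sites, and those of Dtx1, Notch1 and Rbpj lie inside the gene positions given below. For these genes the bases before the start of those positions were not searched. Capitals mark TGGGAA or TTCCCA.
Hes5: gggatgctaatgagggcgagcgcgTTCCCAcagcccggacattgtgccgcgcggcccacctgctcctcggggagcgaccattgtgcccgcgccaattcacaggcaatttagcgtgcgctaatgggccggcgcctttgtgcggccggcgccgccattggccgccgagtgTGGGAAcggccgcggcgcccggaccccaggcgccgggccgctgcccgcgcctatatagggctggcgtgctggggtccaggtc
Dtx1: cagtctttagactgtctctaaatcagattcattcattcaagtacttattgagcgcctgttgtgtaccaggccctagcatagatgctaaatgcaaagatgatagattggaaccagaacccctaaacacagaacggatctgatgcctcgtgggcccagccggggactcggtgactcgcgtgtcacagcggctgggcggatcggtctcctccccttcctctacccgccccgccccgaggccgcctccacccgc
Nrarp: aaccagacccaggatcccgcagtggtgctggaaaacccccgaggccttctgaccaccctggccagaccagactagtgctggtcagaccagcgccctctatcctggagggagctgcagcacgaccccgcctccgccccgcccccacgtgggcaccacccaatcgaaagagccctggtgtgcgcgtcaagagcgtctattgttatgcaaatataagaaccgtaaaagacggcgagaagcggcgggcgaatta
The Hes5 window held 2 matches, whose first bases lay 226 and 82 bases before the start site (-226 and -82), and both matched the longer form. The windows of Dtx1, Nrarp, Notch1 and Notch2 held none of these letters, and the 2 Rbpj windows, which overlap, held 2 and 1 matches of the shorter form. A match is a description of letters and not of binding.

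The gate was checked with markers it did not use. Ms4a1 (CD20) was at 64.5 to 1476 CPM (UMIs per 1000000 summed UMIs of those cells) in the B cells of the libraries and at 0 to 8.54 CPM in T cells. Pax5 was at 20.2 to 109 CPM in B cells and 0 to 1.07 CPM in T cells, and Ebf1 at 3.33 to 539 CPM and 0 to 1.31 CPM. Of 6 T-cell markers Cd2 was also seen in gated B cells, at 111 to 877 CPM, and so was Lck, at 7.99 to 191 CPM (median 48.5 CPM, beside 388 CPM in T cells). Trac, a constant gene of the T-cell receptor, was found in gated B cells at 0.850 to 10.6% of its T-cell level (median 3.32%), and the 6 markers together at 6.31 to 46.4%. Summed myeloid markers reached 0.683 to 3106 CPM in gated B cells, and their part in the levels given here was not tested. The libraries held 9348094 to 72440894 UMIs over all barcodes, and the median B cell held 4267 to 16712.5 UMIs. The B cells of Eµ-PRMT5 spleen 4 stood apart, with a median of 16712.5 UMIs where the rest of its group had 4267 to 7835.5, and 582 of its 800 B cells held a UMI of the cycling genes Mki67 or Top2a. The lowest B-cell values of Ms4a1, Pax5 and Ebf1 given above were also those of this library. Its 6 B-cell markers together were at 230 CPM, where the lowest sum in any other group was 1130 CPM. The results are therefore also given without this library where it matters.

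All levels below are CPM of the summed UMIs of the B cells, or of the T cells, of a library, and 1 UMI of this 3′ assay stands for 1 transcript end, so no division by length was made. The largest ratio of B to T cells was that of Hes5, a transcriptional repressor (chr4:154960923-154962371, plus strand, protein-coding). It averaged 22.2 CPM in B cells and 0.353 CPM in T cells over 20 libraries, a ratio of 62.9, and was higher in B cells in 20 of 20. The T-cell value rests on 33 UMIs, with 17 of 20 libraries at no more than 3 UMIs, and on the scale of log2(CPM + 1) the mean difference was 4.05 for Hes5 and 3.78 for Dtx1. Dtx1 (chr5:120680202-120711927, minus strand) averaged 119 CPM in B cells and 9.26 CPM in T cells, a ratio of 12.9, and was higher in B cells in 19 of 20. The exception was Eµ-PRMT5 spleen 4, with 3.40 CPM in B cells (48 UMIs, exact 95% interval 2.51 to 4.51 CPM) and 9.73 CPM in T cells (5 UMIs in 46 cells, 3.16 to 22.7 CPM), so the intervals overlap. Hes1 (chr16:30064384-30067796, plus strand), a repressor of the same family as Hes5, averaged 12.0 CPM in B cells and 2.90 CPM in T cells and was higher in B cells in 19 of 20. Its exception was Eµ-PRMT5/TCL1 spleen 1, where T cells reached 52.3 CPM from 44 UMIs in 11 of 143 cells, with 11 of them in 1 cell. Without that library the Hes1 mean was 11.9 CPM in B cells and 0.297 CPM in T cells, and 15 of the 20 libraries held no more than 3 Hes1 UMIs in T cells.

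Notch1 and Nrarp ran the other way. Notch1 (chr2:26457903-26516663, minus strand) averaged 6.16 CPM in B cells and 38.0 CPM in T cells and was lower in B cells in 20 of 20 libraries. Nrarp (chr2:25180758-25183339, plus strand) averaged 1.13 CPM in B cells and 31.1 CPM in T cells, a ratio of T to B cells of 27.5, and was also lower in B cells in 20 of 20. The Notch1 level in B cells was 3.91 to 42.3% of that in T cells and the Nrarp level 0 to 29.5% (median 2.78%). Trac was at 0.850 to 10.6% and the 6 T-cell markers together at 6.31 to 46.4%. In B cells that sum was led by Cd2, with medians of 388 CPM in B cells and 527 CPM in T cells. The medians in B and T cells were 48.5 and 388 CPM for Lck and 0.510 and 546 CPM for Trbc2. They were 1.25 and 420 CPM for Lat and 0.282 and 226 CPM for Cd247. The part of T-cell RNA in the Notch1 and Nrarp levels of B cells was not tested. Notch2 (chr3:98013527-98150361, plus strand) averaged 23.6 CPM in B cells and 14.9 CPM in T cells and was higher in B cells in 17 of 20. Rbpj (chr5:53466152-53657362, plus strand) averaged 48.2 CPM in B cells and 40.1 CPM in T cells and was higher in B cells in 13 libraries and lower in 7. Because the gate itself separates B from T cells, no test was made of these differences.

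The shares of cells with a UMI followed the levels. Dtx1 was detected in 46.9% ± 15.8 of B cells (SD, n = 20 libraries) and in 4.04% ± 3.70 of T cells, and Hes5 in 14.05% ± 5.65 and 0.189% ± 0.318. Notch1 was detected in 4.86% ± 3.16 of B cells and 17.6% ± 5.13 of T cells, and Nrarp in 0.671% ± 0.831 and 11.7% ± 6.80. The median B cell held 4267 to 16712.5 UMIs in a library and the median T cell 2861 to 9577.5, so shares were also computed at a common depth of 1000 UMIs per cell. At that depth Dtx1 was expected in 10.9% ± 4.90 of B cells and 0.952% ± 1.08 of T cells, and Notch1 in 0.626% ± 0.334 and 3.78% ± 1.03, in the same order as before. Fewer cells with the gene and fewer transcripts per cell cannot be told apart in a summed level.

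**Figure D1:**
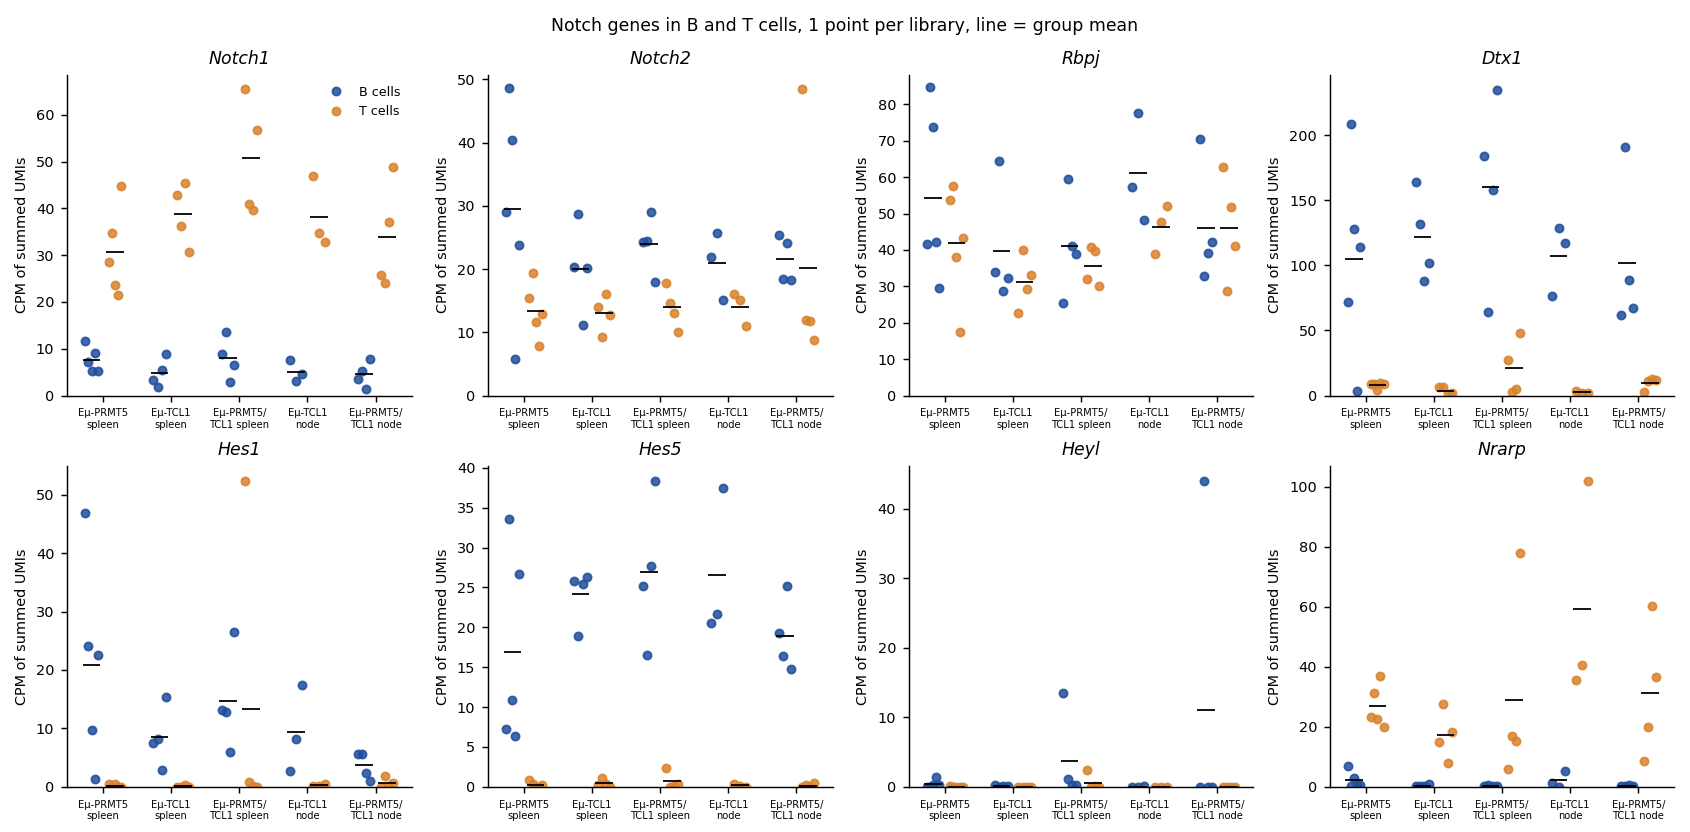
Levels of the 8 Notch pathway genes in B cells and T cells, in CPM of summed UMIs, with 1 point per library, short lines at the group means and groups along the horizontal axis. Hes5 and Dtx1 lie higher in B cells in 20 and 19 of 20 libraries, and Notch1 and Nrarp lie lower in B cells in 20 of 20.

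Notch2 was the more abundant receptor in B cells in all libraries except Eµ-PRMT5 spleen 4. Eµ-PRMT5 spleens 1 to 5 held 29.0, 48.6, 40.4, 5.81 and 23.7 CPM of Notch2. Eµ-TCL1 spleens 1 to 4 held 20.3, 28.7, 11.2 and 20.1 CPM, and Eµ-PRMT5/TCL1 spleens 1 to 4 held 24.3, 24.4, 29.0 and 17.98 CPM. The ranges of the 3 spleen groups overlapped, and the highest and the lowest values both belonged to Eµ-PRMT5. In lymph nodes it was at 21.9, 25.8 and 15.1 CPM in Eµ-TCL1 and at 25.3, 18.5, 24.2 and 18.2 CPM in Eµ-PRMT5/TCL1, again with overlap.

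Notch1 in B cells was at 11.6, 7.16, 5.30, 9.06 and 5.34 CPM in Eµ-PRMT5 spleens 1 to 5. Eµ-TCL1 spleens 1 to 4 held 3.39, 1.73, 5.56 and 8.96 CPM, and Eµ-PRMT5/TCL1 spleens 1 to 4 held 8.88, 13.5, 2.82 and 6.53 CPM. No spleen group stood outside the others. Node values were 7.52, 3.11 and 4.60 CPM in Eµ-TCL1 and 3.59, 5.29, 1.45 and 7.81 CPM in Eµ-PRMT5/TCL1. Rbpj, through which both receptors act, ranged in spleens over 29.7 to 84.8 CPM with Eµ-PRMT5, 28.8 to 64.3 CPM with Eµ-TCL1 and 25.4 to 59.4 CPM with both transgenes. In nodes it ranged over 48.1 to 77.7 CPM in Eµ-TCL1 and 32.9 to 70.4 CPM in Eµ-PRMT5/TCL1, so it was detected in the B cells of all 20 libraries.

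Dtx1 was at 72.2, 209, 128, 3.40 and 114 CPM in the B cells of Eµ-PRMT5 spleens 1 to 5. Eµ-TCL1 spleens 1 to 4 had values of 164, 132, 88.4 and 102 CPM, and Eµ-PRMT5/TCL1 spleens 1 to 4 had 184, 64.3, 158 and 235 CPM. Apart from Eµ-PRMT5 spleen 4, the other 19 libraries lay between 62.2 and 235 CPM, and the order of the group means, 105 ± 75.4 (SD, n = 5), 122 ± 33.8 (n = 4) and 160 ± 71.5 CPM (n = 4), was within the spread of the libraries. Lymph nodes held 76.6, 128 and 117 CPM in Eµ-TCL1 and 62.2, 191, 88.4 and 67.0 CPM in Eµ-PRMT5/TCL1.

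Hes5 was at 7.29, 33.6, 10.9, 6.37 and 26.7 CPM in Eµ-PRMT5 spleens 1 to 5. Eµ-TCL1 spleens 1 to 4 held 25.8, 18.9, 25.4 and 26.3 CPM, and Eµ-PRMT5/TCL1 spleens 1 to 4 held 25.2, 16.5, 27.6 and 38.3 CPM. Of the Eµ-PRMT5 spleens, 1, 3 and 4 lay below every library of the other 2 spleen groups, while 2 and 5 lay above every Eµ-TCL1 spleen. Node values were 20.5, 21.7 and 37.4 CPM in Eµ-TCL1 and 19.3, 16.4, 25.1 and 14.8 CPM in Eµ-PRMT5/TCL1.

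Hes1 ranged from 0.992 to 46.8 CPM over the 20 libraries, with a coefficient of variation of 93.5% that was the largest of the 6 genes other than Heyl and Nrarp. Eµ-PRMT5 spleens 1 to 5 held 46.8, 24.1, 9.72, 1.42 and 22.6 CPM. Eµ-TCL1 spleens 1 to 4 held 7.48, 8.14, 2.95 and 15.4 CPM, and Eµ-PRMT5/TCL1 spleens 1 to 4 held 13.2, 12.8, 5.92 and 26.6 CPM. The 3 highest Eµ-PRMT5 spleens exceeded every Eµ-TCL1 spleen, and the lowest fell under every one of them. Nodes held 2.73, 8.16 and 17.4 CPM in Eµ-TCL1 and 5.67, 5.61, 2.42 and 0.992 CPM in Eµ-PRMT5/TCL1.

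Heyl, another repressor of the Hes and Hey family (chr4:123233556-123249875, plus strand), was found mainly in 1 of the 13 mice. In Eµ-PRMT5/TCL1 spleen 1 it gave 426 UMIs, or 13.5 CPM, in 6.03% of B cells (289 of 4795 cells, exact 95% interval 5.37 to 6.74%). In Eµ-PRMT5/TCL1 lymph node 2, from the same mouse by its label, it gave 674 UMIs, or 44.0 CPM, in 16.6% of B cells (452 of 2726 cells, 15.2 to 18.03%). The label of this mouse alone ends in RT, the study's short form of Richter's transformation. The study's text does not say what that ending means for this mouse. The other 18 libraries held 0 to 20 UMIs each in B cells, and the 20 UMIs were those of Eµ-PRMT5 spleen 4 at 1.42 CPM. No T cell of that node held a Heyl UMI, which, at the usual limit of 3 counts, allows a share of cells with a UMI of up to 0.302%, for counting error only. In the T cells of the spleen 2 of 143 cells held a Heyl UMI (1.40%, exact 95% interval 0.170 to 4.96%), at 2.38 CPM.

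Nrarp was low in the B cells of most libraries, at 0 to 6.87 CPM. Eµ-PRMT5 spleen 1 held 49 UMIs (6.87 CPM), Eµ-PRMT5 spleen 3 held 23 (2.90 CPM) and Eµ-TCL1 lymph node 3 held 87 (5.27 CPM). In that node the 87 UMIs came from 38 of 1942 B cells, and 16 of them (18.4%) from a single cell. The spleen of the same mouse held 0.810 CPM. Elsewhere the count was 0 to 17 UMIs per library.

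To compare genotypes, UMIs were summed over the B cells of each library and tested with edgeR's quasi-likelihood test across all genes that passed the low-count filter, with a call at an adjusted p below 0.05. Heyl and Nrarp did not pass that filter, so 6 of the 8 genes were tested, and with no such filter neither of these 2 was called in any comparison. When Eµ-PRMT5 spleens were set against Eµ-TCL1 spleens, 0 of 6 were called, against a background of 0.026% of 11541 genes (3 genes). Hes1 had the largest difference, with a log2 change of 1.15 ± 0.69 (SE, edgeR adjusted p = 0.418), followed by Hes5 at -0.65 ± 0.42 (edgeR adjusted p = 0.452) and Notch1 at 0.62 ± 0.52 (edgeR adjusted p = 0.569). Notch2, Rbpj and Dtx1 had log2 changes of 0.39 ± 0.42, 0.34 ± 0.34 and -0.38 ± 0.65. Without Eµ-PRMT5 spleen 4 the Hes1 log2 change was 1.45 ± 0.53 (edgeR adjusted p = 0.115), that of Notch2 was 0.64 ± 0.30 (edgeR adjusted p = 0.203) and that of Dtx1 was -0.07 ± 0.36, and 318 genes (2.82% of 11283) were called, none of them among the 6. Without Eµ-PRMT5 spleen 1 the Hes1 value was 0.61 (edgeR adjusted p = 0.758). Over all alternatives Notch1 ranged from 0.34 to 1.06, Hes5 from -1.06 to -0.45, Rbpj from 0.07 to 0.68, Notch2 from 0.17 to 0.64 and Dtx1 from -0.76 to -0.07. Summed cycling markers in B cells ranged over 13.1 to 641 CPM in Eµ-PRMT5 and 27.5 to 316.6 CPM in Eµ-TCL1 spleens, and the 4 follicular markers over 27.5 to 782 CPM (median 367 CPM) and 124 to 184 CPM (median 158 CPM), so that the Eµ-TCL1 values lay within the range of Eµ-PRMT5. The share of B cells with a Cr2 UMI was 0 to 26.2% and 0.297 to 1.40%, and that of the leading heavy chain variable gene 3.44 to 99.7% and 32.03 to 99.7% of the B cells assigned one. In Eµ-PRMT5 spleen 1, 221 of 334 Hes1 UMIs lay in Cr2-positive cells. The part of these measures in the log2 changes was not tested. Of the 6 genes 4 had a positive and 2 a negative change, with a median of 0.37, beside 0.02 over all genes tested. In the comparisons that follow (double transgenic against Eµ-TCL1 and against Eµ-PRMT5 spleens, nodes, tissues, Cr2 split) that median was 0.23, -0.12, -0.19, -0.25 and -0.09. No test was made of these medians.

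When spleens of double transgenic and Eµ-TCL1 mice were compared, 0 of 6 were called, with a background of 0.00866% (1 of 11541 genes). The log2 changes were 0.62 ± 0.71 for Hes1, 0.58 ± 0.54 for Notch1, 0.27 ± 0.69 for Dtx1 and 0.20 ± 0.43 for Notch2, and those of Hes5 and Rbpj were 0.04 ± 0.44 and -0.04 ± 0.35. All 6 had an edgeR adjusted p of 1. Over the alternatives Hes1 ranged from 0.31 to 1.06, Notch1 from 0.17 to 1.02 and Dtx1 from 0.16 to 0.52. When spleens of double transgenic and Eµ-PRMT5 mice were compared, again 0 of 6 were called, beside 0% of 11541 genes. The differences that exceeded their SE were those of Hes5 (0.69 ± 0.42, edgeR adjusted p = 0.641), Rbpj (-0.38 ± 0.34, edgeR adjusted p = 0.759) and Dtx1 (0.65 ± 0.65, edgeR adjusted p = 0.787). Without Eµ-PRMT5 spleen 4 the Dtx1 value was 0.34 (edgeR adjusted p = 0.644), and it reached 1.06 with the replicate block, while Hes5 ranged from 0.49 to 1.11 and Rbpj from -0.66 to -0.21 over the alternatives. Hes1, Notch2 and Notch1 were at -0.53 ± 0.68, -0.19 ± 0.42 and -0.04 ± 0.52. In lymph nodes, where 4 Eµ-PRMT5/TCL1 and 3 Eµ-TCL1 libraries were compared, 0 of 6 were called beside 0% of 10892 genes. Hes1 was at a log2 change of -1.43 ± 0.69 there (edgeR adjusted p = 0.771) and Hes5 at -0.48 ± 0.32 (edgeR adjusted p = 0.866). The Hes1 value was -0.59 without Eµ-TCL1 lymph node 3 (edgeR adjusted p = 0.997) and -0.76 with the replicate block, and Hes5 ranged from -0.67 to -0.05 over the alternatives. Rbpj, Notch2, Notch1 and Dtx1 were at -0.35 ± 0.28, 0.11 ± 0.24, 0.07 ± 0.55 and -0.02 ± 0.42. The 5 plasma cell markers summed in node B cells, all 5 detected in every node, did not overlap between these groups, at 670 to 797 CPM in Eµ-TCL1 and 109 to 413 CPM in Eµ-PRMT5/TCL1. Of the 5, Xbp1 was the most abundant and Sdc1 the least, with medians of 188 and 2.92 CPM in B cells over the 20 libraries. Jchain, 1 of the 5, is also limited by the gate, and the part of these markers in the node values was not tested.

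In these 4 comparisons the unadjusted edgeR p was below 0.05 for 0 of the 6 genes. DESeq2 also called none of them, beside 5.88, 0.182, 0.979 and 0.578% of all genes in the order of the comparisons above. Its unadjusted p was below 0.05 for 0 of the 6. Over all genes edgeR gave an unadjusted p below 0.05 to 17.1, 4.51, 8.74 and 6.75% of genes in the same order. The groups overlapped for every one of the 6 genes in each comparison. Of all genes tested only 5.01, 3.28, 1.83 and 6.29% did not overlap, in the same order. The SE of Dtx1 and Hes1 between spleens was 0.65 to 0.71, so differences of that size on the log2 scale were not detectable with 4 or 5 mice per group, and no p above the threshold shows that the genotypes were alike. The spleen comparisons share libraries and are not independent of each other.

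**Figure D2:**
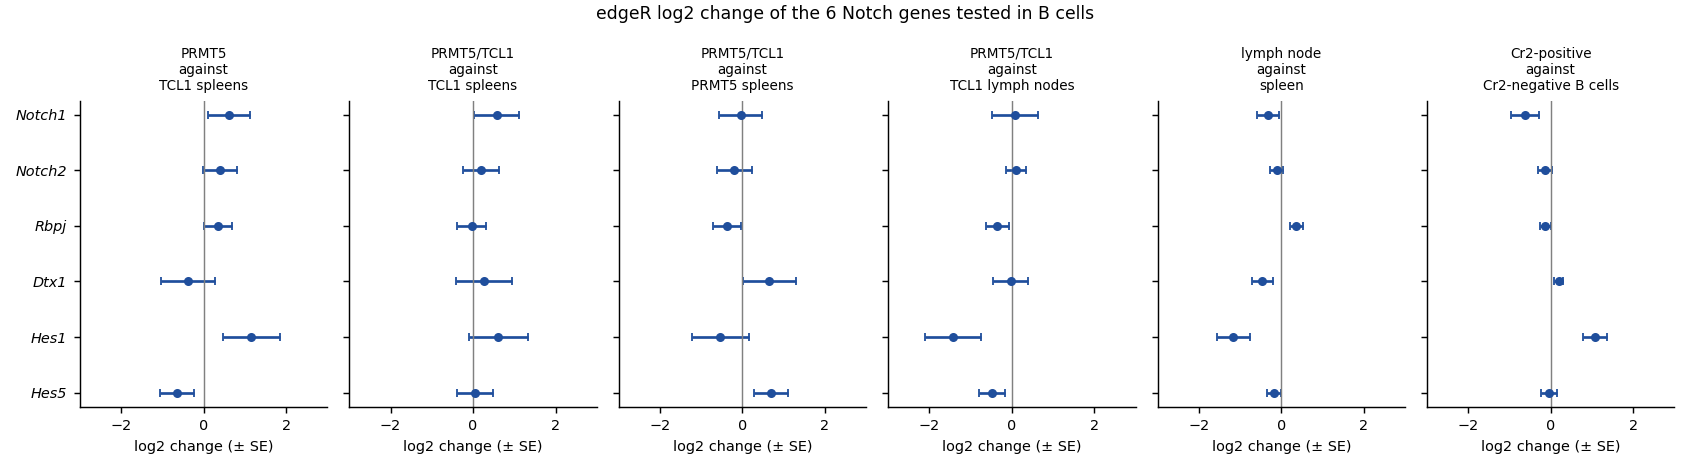
Log2 change of the 6 tested Notch pathway genes in the 6 comparisons, with points at the edgeR estimate and bars of 1 SE. No gene passed an adjusted p of 0.05, and Hes1 has the estimate farthest from 0 in every comparison but that of double transgenic and Eµ-PRMT5 spleens, where Hes5 (0.69) and Dtx1 (0.65) lie farther out than Hes1 (-0.53).

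In the 7 mice with both tissues, lymph node and spleen B cells were compared with the mouse as a block. Hes1 was lower in the node in 5 of 7 mice, with a log2 change of -1.16 ± 0.39 (SE, unadjusted p = 0.0140, edgeR adjusted p = 0.307). It was lower in 4 of 4 Eµ-PRMT5/TCL1 mice, where spleen and node values were 26.6 and 5.67, 13.2 and 5.61, 5.92 and 2.42, and 12.8 and 0.992 CPM. In the 3 Eµ-TCL1 mice they were 7.48 and 2.73, 8.14 and 8.16, and 15.4 and 17.4 CPM, of which 1 pair was lower in the node. The difference between the genotypes in this shift was not tested. Rbpj was higher in the node in 5 of 7 mice, with a log2 change of 0.37 ± 0.16 (unadjusted p = 0.0452, edgeR adjusted p = 0.429).

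Neither was called, and 0 of 6 genes passed beside a background of 0.00911% (1 of 10971 genes), while 11.2% of all genes and 2 of the 6 had an unadjusted p below 0.05. DESeq2 also called 0 of the 6, beside 2.48% of all genes, with 2 at an unadjusted p below 0.05. Leaving out 1 mouse at a time kept the Hes1 log2 change between -1.50 and -0.85. Notch1 and Hes5 were lower in the node in 4 of 4 Eµ-PRMT5/TCL1 mice and in 1 of 3 Eµ-TCL1 mice, with log2 changes over all 7 mice of -0.32 ± 0.27 and -0.17 ± 0.17. In the Eµ-PRMT5/TCL1 mice the exact 95% intervals of node and spleen overlapped for Notch1 at nodes 1, 3 and 4, and for Hes5 at nodes 3 and 4. Notch1 in Eµ-PRMT5/TCL1 node 3 rests on 3 UMIs. Dtx1 was at -0.46 ± 0.25 and was lower in 4 of 7, and Notch2 was at -0.12 ± 0.15 and was lower in 5 of 7. Heyl, not tested, was lower in 5 of 7 and higher in 1, and Nrarp was higher in 4 of 7. Some markers of other cells moved with the tissue. The 4 NK markers summed in B cells were lower in the node in 6 of 7 mice and higher in 1 (median 0.483 CPM in nodes and 1.79 CPM in spleens). So were the 5 stromal or endothelial markers (34.1 and 36.1 CPM), whereas the 5 dendritic markers were lower in 3 and higher in 4. Pecam1 led the stromal or endothelial sum, with a median of 31.2 CPM in B cells over the 20 libraries, and Kdr was at 0 in all 20. The 6 myeloid markers summed in B cells were lower in the node in 5 of 7 mice, at 0.683 to 3106 CPM (median 14.6 CPM) in nodes and 25.5 to 1842 CPM (median 263 CPM) in spleens, and the 3 erythroid markers were lower in 7 of 7, at 0 to 0.483 CPM in nodes and 2.24 to 443 CPM in spleens. Their part in the tissue differences was not tested. The leading heavy chain variable gene was the same in the spleen and node of each mouse.

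**Figure D3:**
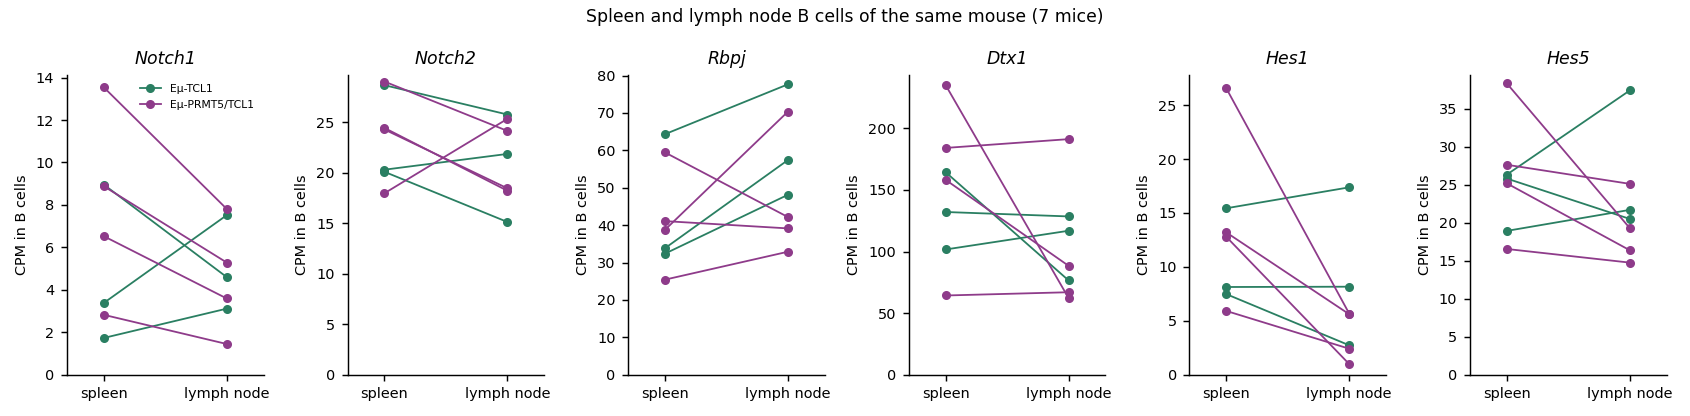
Levels in B cells of spleen and lymph node, in CPM, with 1 line per mouse, coloured by genotype. The panels show 6 genes, and the Hes1 lines fall in 4 of 4 Eµ-PRMT5/TCL1 mice and in 1 of 3 Eµ-TCL1 mice. Hes1 in Eµ-PRMT5/TCL1 nodes 3 and 4 and in Eµ-TCL1 node 1 rests on 5, 8 and 4 UMIs.

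Cr2 encodes CD21, a complement receptor that is high on marginal zone B cells, and it was not used by the gate. The 5 marginal zone markers summed, of which Cd9 is the most abundant, had another order across spleens than Cr2, with medians of 424 CPM in Eµ-PRMT5 (156 to 615 CPM), 461 CPM in Eµ-TCL1 and 579 CPM in Eµ-PRMT5/TCL1. In the 7 spleens that held at least 20 B cells with and without a Cr2 UMI, 21 to 340 cells were Cr2-positive. Cr2-positive cells made up 26.2, 7.66, 5.83, 0 and 10.8% of B cells in Eµ-PRMT5 spleens 1 to 5, and 0 to 2.38% in the other 15 libraries. Cr2 was at 0 in the T cells of 18 of the 20 libraries. Hes1 in cells with and without Cr2 was at 106 and 22.4 CPM in Eµ-PRMT5 spleen 1, 31.1 and 23.6 CPM in spleen 2, 27.4 and 8.22 CPM in spleen 3, and 48.9 and 18.5 CPM in spleen 5. It was at 11.6 and 8.07 CPM in Eµ-TCL1 spleen 2, at 7.44 and 13.3 CPM in Eµ-PRMT5/TCL1 spleen 1 and at 18.2 and 26.8 CPM in Eµ-PRMT5/TCL1 spleen 4. It was higher with Cr2 in 5 of 7 libraries, namely all but the 2 Eµ-PRMT5/TCL1 spleens. The values with Cr2 rest, in the order given, on 340, 21, 86, 47, 72, 63 and 47 cells. At such cell numbers a few Hes1 UMIs can change the order within a library, and this counting error was not estimated.

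With the library as a block the Hes1 log2 change was 1.07 ± 0.29 (SE, unadjusted p = 0.00144, edgeR adjusted p = 0.0906), so that 0 of the 6 genes were called beside a background of 0.928% (84 of 9047 genes). It was called without Eµ-PRMT5/TCL1 spleen 1 (1.26, edgeR adjusted p = 0.0242, beside 1.14% of all genes) and with no low-count filter (1.04, edgeR adjusted p = 0.0400, beside 1.1%), and it fell to 0.56 without Eµ-PRMT5 spleen 1 (edgeR adjusted p = 0.481). In DESeq2 it was 0.82 ± 0.34 with an unadjusted p of 0.0153. DESeq2 gave an adjusted p for Dtx1 and Rbpj alone, neither of which was called, beside 0.984% of all genes. Notch1 was lower in Cr2-positive cells in 7 of 7 libraries, at a log2 change of -0.62 ± 0.34 (edgeR adjusted p = 0.479), from 0 to 22 UMIs per library. Dtx1 was at 0.20 ± 0.11 (edgeR adjusted p = 0.502), Notch2 at -0.14 ± 0.16, Rbpj at -0.13 ± 0.14 and Hes5 at -0.04 ± 0.20. Nrarp was higher with Cr2 in 3 libraries and lower in 4, and Heyl higher in 1 and lower in 3. Cr2-positive cells were deeper in all but 1 of the 7 libraries, with a median over libraries of 7128 against 5584 UMIs per cell and the exception in Eµ-PRMT5 spleen 2 (5176 against 7906 UMIs), and the part of depth was not tested.

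**Figure D4:**
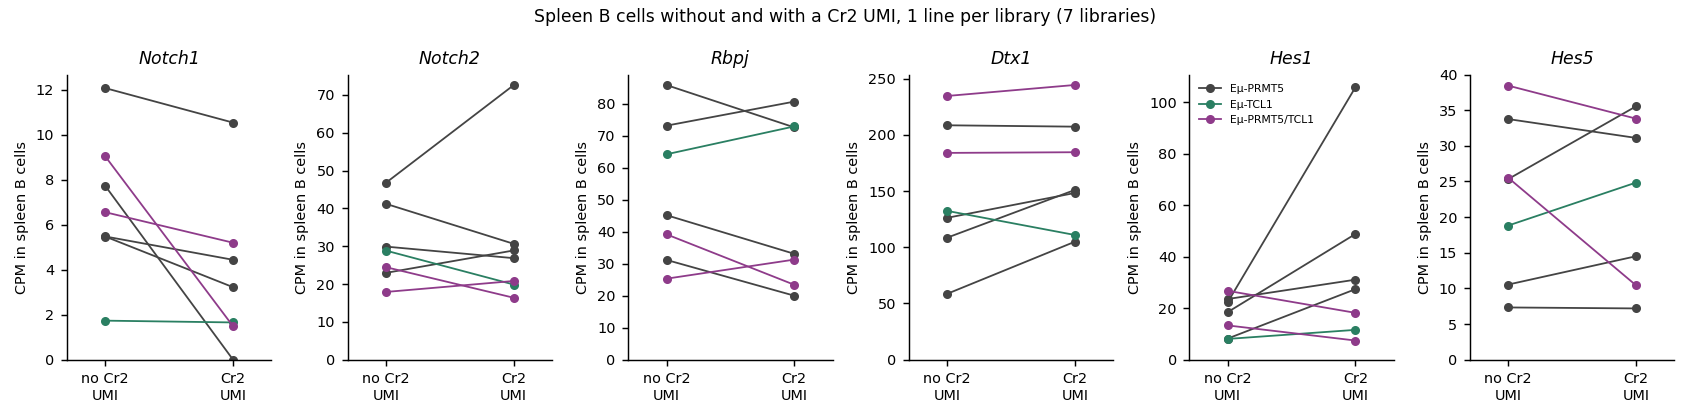
Levels in Cr2-positive and Cr2-negative B cells of 7 spleens, in CPM, with 1 line per library coloured by genotype. Hes1 is higher in Cr2-positive cells in 5 of 7 libraries, and Notch1 is lower in 7 of 7, from 21 to 340 Cr2-positive cells per library.

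B cells were also split by their heavy chain variable gene, as a description with no test, in the 11 libraries with at least 20 cells with and without the library's leading gene. Dtx1 was higher in cells with the leading gene in 10 of 11 libraries, with a median over libraries of 133 against 81.4 CPM. In Eµ-TCL1 spleen 2 it was at 133 CPM in 4900 cells with the gene and 72.7 CPM in 50 without, and in Eµ-PRMT5/TCL1 spleen 4 at 238 and 172 CPM. The exception was Eµ-PRMT5 spleen 1, at 58.4 CPM in 28 cells and 80.2 CPM in 785 cells. Notch1 and Hes5 were lower in the leading cells in 8 of 11 libraries and Notch2 in 7. Hes1 was higher in 8 of 11, although its median over libraries was lower, at 5.84 against 11.8 CPM, and Rbpj and Nrarp were each higher in 6. Heyl in Eµ-PRMT5/TCL1 lymph node 2 was at 46.2 CPM in 2272 leading cells and 20.9 CPM in 329 others, and in the spleen of that mouse at 14.1 and 6.63 CPM, beside 2.38 CPM in the T cells of that spleen. Cells with the leading gene were deeper, at a median over libraries of 5939 against 4912 UMIs, except in Eµ-PRMT5 spleen 3 and Eµ-TCL1 spleen 3.

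Cells with a UMI of Mki67 or Top2a were set against the other B cells in 19 libraries, again as a description. Dtx1 was lower in these cycling cells in 18 of 19 libraries (median 102 against 113 CPM), Notch2 in 16 (15.5 against 24.7 CPM), Hes5 in 15 (18.6 against 23.7 CPM) and Rbpj in 13. Notch1 was higher in 15 of 19, and Hes1 was higher in 10 and lower in 9. Nrarp was higher in 12 and lower in 6, and Heyl higher in 7 and lower in 5. Cycling cells held a median of 10722 UMIs against 6874. Within Eµ-PRMT5 spleen 4, where 72.8% of B cells were of this kind, Dtx1 was the lowest of all libraries, as given above. The part of cycling cells in that low level was not tested, nor was that of the low B-cell marker levels of this library.

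Across the 20 libraries the B-cell levels of the 6 genes other than Heyl and Nrarp, which averaged under 5 CPM, were set against each other and against all 9046 genes with a mean of at least 5 CPM by Spearman correlation of CPM, as a description, since libraries share mice, depth and scaling. Dtx1 and Hes5 were the most alike pair among the 6 (rho = 0.56), followed by Notch2 and Rbpj (0.52), Hes1 and Hes5 (0.44) and Dtx1 and Hes1 (0.42). The genes most like Hes1 were Cux1 (0.87), Slc25a37 (0.83) and Ppard (0.83). Among those most like Dtx1 were Sema4b (0.76) and Leprot (0.75), and those most like Hes5 were Snx20 (0.76), Cyp11a1 (0.75) and Cyp39a1 (0.74). Notch2 was most like Fastkd1 (0.79), Smg6 (0.79) and Gprasp1 (0.78), Notch1 like Ctdnep1 (0.74), Mis18a (0.73) and Tcirg1 (0.71), and Rbpj like Nars (0.83), Slc6a9 (0.81) and Xpot (0.78).

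The rest of the pathway was read from a list of 51 further genes. Ligands were near 0 in B cells, at no more than 2.27 CPM for any of the 5 in any library, with Jag2 the most abundant at 0.709 ± 0.676 CPM (SD, n = 20). Notch3 and Notch4 were as low, with Notch4 at 0.963 ± 0.395 CPM. The machinery that cuts the receptors was present, with 8 of 10 genes at a mean of at least 5 CPM and Psenen, a subunit of γ-secretase, at 201 ± 39.3 CPM. All 5 genes that add sugars to the receptor reached that level, led by Mfng at 46.4 ± 8.94 CPM, as did all 5 co-activators, led by Snw1 at 121 ± 22.4 CPM. Of 7 co-repressors 6 did, led by Ncor1 at 118 ± 36.7 CPM, and of 11 genes of trafficking and turnover 8 did, led by Dtx3, a relative of Dtx1, at 34.4 ± 12.6 CPM. Of 6 other targets 2 did, led by Myc, which is a target of other pathways too, at 201 ± 163 CPM, and the lowest of the 6 averaged 0.0181 CPM.

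Of these 51 genes, 41, 41, 41, 37, 36 and 34 were tested in the 3 spleen comparisons, the node comparison, the tissue comparison and the Cr2 split. edgeR called 0, 0, 0, 0, 0 and 1, and the 1 call was Cr2 itself, which defined the split. At an unadjusted p below 0.05 the counts were 8, 1, 6, 1, 2 and 4, beside 17.1, 4.51, 8.74, 6.75, 11.2 and 12.2% of all genes. DESeq2 called 3, 0, 2, 1, 0 and 1 of them, beside 5.88, 0.182, 0.979, 0.578, 2.48 and 0.984% of all genes fitted (679, 21, 113, 63, 272 and 89 genes). The DESeq2 calls for Eµ-PRMT5 against Eµ-TCL1 spleens were Lfng, Cr2 and Pofut1, at log2 changes of 3.50 ± 0.75, 4.22 ± 1.12 and -0.66 ± 0.21 (DESeq2 adjusted p = 0.000582, 0.00927 and 0.0337). They are named here after their values were seen. Lfng, which modifies Notch receptors, was at 20.2 ± 18.8 CPM with Eµ-PRMT5 (SD, n = 5 spleens) and 1.57 ± 0.0553 CPM with Eµ-TCL1 (n = 4), and at a mean of 93.2 CPM in T cells. By edgeR with all spleens its log2 change was 3.49 ± 0.84 (edgeR adjusted p = 0.115). Without Eµ-PRMT5 spleen 4, edgeR called Lfng (3.81 ± 0.58, edgeR adjusted p = 0.0179), Cr2, Pofut1 and Maml1, which are 4 of 40 listed genes tested, beside 2.82% of all genes (318 of 11283).

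Neurl3, a relative of the ubiquitin ligases that act on Notch ligands, was the gene called by DESeq2 in nodes between Eµ-PRMT5/TCL1 and Eµ-TCL1 (-2.19 ± 0.60, DESeq2 adjusted p = 0.0414), and, with Cr2, in spleens of double transgenic against Eµ-PRMT5 mice (-3.13 ± 0.89, DESeq2 adjusted p = 0.0442). Its mean level in B cells in spleens was 49.7 ± 51.5 CPM with Eµ-PRMT5, 31.3 ± 22.5 with Eµ-TCL1 and 5.25 ± 2.83 with both transgenes, and 30.4 ± 20.1 and 6.14 ± 3.50 in Eµ-TCL1 and Eµ-PRMT5/TCL1 nodes. By edgeR its log2 change was -2.21 ± 0.59 in nodes (edgeR adjusted p = 0.633) and -3.17 ± 1.06 in those spleens (edgeR adjusted p = 0.462), so it was not called. T cells held Neurl3 at a mean of 229 CPM. The part of T-cell RNA in the B-cell values was not tested, nor was that of the summed plasma cell markers, led by Xbp1, that did not overlap between the node groups.

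**Figure D5:**
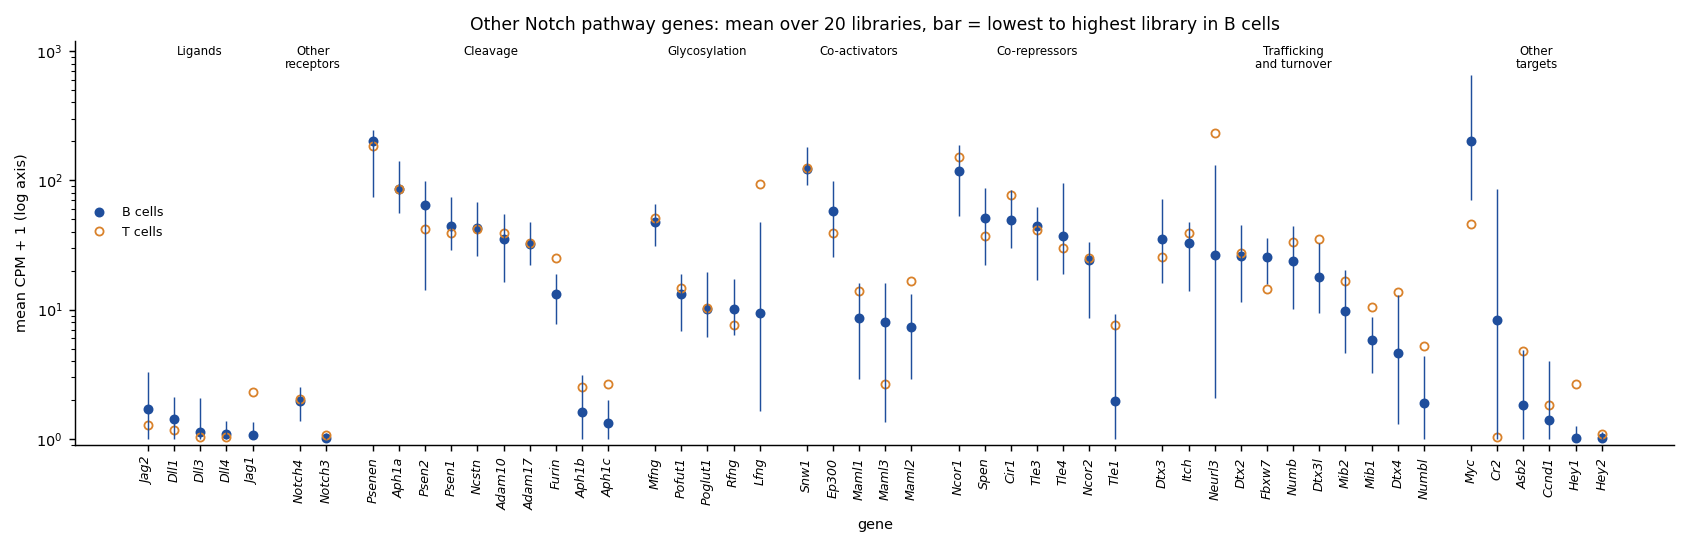
Mean level over 20 libraries of the 51 wider Notch pathway genes in B cells (filled) and T cells (open), as CPM + 1 on a log axis, grouped by role, with bars from the lowest to the highest library in B cells. Ligands and the other receptors stay at no more than 2.27 CPM in any B-cell library, whereas Psenen averages 201 CPM, and Lfng and Neurl3 lie higher in T cells.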

How the data were processed

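The deposited files hold raw UMI counts per gene and barcode (31053 genes, 737280 barcodes, unfiltered). Per the submitters' processing notes and the study's methods, 10x 3′ v2 libraries were processed by the authors with Cell Ranger 2.0.1 and Seurat 2.2.1 on GRCm38, whereas the matrix headers name Cell Ranger 3.1.0. The 8 genes, the gate and the lists were chosen with earlier results of these data known.

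Cells were barcodes with at least the 99th percentile of UMIs of the top 3000 barcodes divided by 10, no fewer than 200 genes and no more than 10% of UMIs from mitochondria. Doublets were removed as the highest Scrublet scores, in the number expected at 0.8% per 1000 cells, since the automatic threshold marked 0 to 298 barcodes per library. No library pair shared more barcodes than 1.31% of the smaller. UMIs of the B cells were summed per library and tested with edgeR 4.0.16 (quasi-likelihood, TMM, filterByExpr, Benjamini-Hochberg) in R 4.3.3, with DESeq2 1.42.0 as an alternative. All 13 spleens shared 1 fit and the 7 nodes another. Cells are not replicates. Shares at a common depth are the expected share of cells that keep a UMI at 1000 UMIs. Intervals are exact, the limit given for a count of 0 is that of 3 counts, and both cover counting error only.

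By rule, the 8 members are named in each comparison, Heyl and Nrarp by their levels or counts alone where they were not tested, and in the wider list those called or else the most abundant of a role, apart from those said to be chosen later. A marker and a gene of the likeness list are not reported here. Spleen and node of a mouse were paired by the mouse in their titles, and their deviations from the group means correlated at a median r of 0.411 (0.133 to 0.662, 7 pairs, 5422 genes). The pipeline was tested on simulated data. The counts simulated for edgeR had the same spread for every gene and no mouse effect, so they do not measure the power for these genes. Alternatives are listed with the limits.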

Additional observations from a re-analysis of the deposited data

Results flagged for a closer look

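In groups of 4 or 5 libraries, 56 sets of values were examined for a library far from the others, and 10 were found. Chance alone gives about 1 in 20. No explanation was tested.

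In B cells, Heyl stood out at 13.5 CPM in Eµ-PRMT5/TCL1 spleen 1 and at 44.0 CPM in Eµ-PRMT5/TCL1 lymph node 2, from 1 mouse, and at 1.42 CPM (20 UMIs) in Eµ-PRMT5 spleen 4. Eµ-TCL1 spleen 2 was the lowest of its group for Hes5, at 18.9 CPM, and the highest for Rbpj, at 64.3 CPM.

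In T cells, Hes1 was at 52.3 CPM in Eµ-PRMT5/TCL1 spleen 1 (44 UMIs) and Nrarp at 77.8 CPM in Eµ-PRMT5/TCL1 spleen 4 (246 UMIs). Eµ-PRMT5/TCL1 lymph node 1, with 60 T cells, was highest for Notch2, at 48.5 CPM from 17 UMIs, and lowest for Dtx1, at 2.85 CPM from 1 UMI. Dtx1 in the T cells of Eµ-PRMT5 spleen 3 was the lowest of its group, at 4.36 CPM (40 UMIs).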

How the results depend on the processing

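Alternatives were RLE scaling, scaling without immunoglobulin genes, no low-count filter, DESeq2, doublets kept, cells from 500 UMIs, a stricter B gate, a looser T gate, shares without thinning, only the groups compared, Xist as a covariate, the replicate block (genotype comparisons), no mouse or library block (tissues and Cr2 split), leaving out each library or mouse, and Scrublet's automatic threshold, which was added after seeing the data. Xist, taken as a mark of sex, passed 10 CPM in B cells of Eµ-TCL1 spleen 1 and node 1 alone among Eµ-TCL1 libraries. It did so in all Eµ-PRMT5 spleens but 5, all Eµ-PRMT5/TCL1 spleens but 4 and all their nodes but 1. Genotype and Xist status were thus not balanced, and the covariate was fitted in the spleen comparisons alone. No alternative called any of the 8 genes in the 4 genotype comparisons or between tissues, whereas DESeq2, and edgeR without Eµ-PRMT5 spleen 4, called genes of the wider list, and the cause of the shifts below was not tested. The order of B and T cells did not turn for any of the 8 genes, and the shares of cells moved beyond the spread between libraries only without thinning.

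For Eµ-PRMT5 against Eµ-TCL1 spleens the genes called were 679 by DESeq2, 1 with only the groups compared, 1 with Xist as a covariate, 10 with the replicate block and 1 to 318 with 1 library left out (318 without Eµ-PRMT5 spleen 4 and 69 without spleen 5). For double transgenic against Eµ-TCL1 spleens they were 21 by DESeq2, 0 with Xist, 0 with the replicate block and 0 with any library left out. For double transgenic against Eµ-PRMT5 spleens they were 113 by DESeq2, 1 with the replicate block and 0 to 3 with 1 library left out. In nodes they were 63 by DESeq2 and 0 to 11 with 1 library left out (11 without Eµ-TCL1 node 1). Between tissues they were 83 with no low-count filter, 272 by DESeq2, 4 with the stricter gate, 2 with genotype in place of the mouse block and 0 to 55 with 1 mouse left out (55 without that of Eµ-PRMT5/TCL1 spleen 4). For Cr2 they were 195 with no filter, 1 with the group in place of the library block and 44 to 103 with 1 library left out. The members called were 1 with no filter and 0 to 1 with 1 library left out, each time Hes1.

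No gene that turned direction was called in either fit. For double transgenic against Eµ-TCL1 spleens, the log2 change of Notch2 was -0.034 with Xist, that of Rbpj 0.0010 with the stricter gate and -0.30 to 0.27 with 1 library left out, and that of Hes5 -0.071 to 0.18 likewise. For double transgenic against Eµ-PRMT5 spleens, Notch1 was 0.0077 with cells from 500 UMIs and -0.46 to 0.24 with 1 left out, Notch2 -0.44 to 0.024 and Hes1 -0.87 to 0.0047. In nodes, Notch1 was -0.49 with the replicate block and -0.38 to 0.31 with 1 left out, Notch2 -0.048 to 0.35, and Dtx1 0.0031 with the stricter gate, 0.0024 with the replicate block and -0.49 to 0.18 with 1 left out. For Cr2, Hes5 was -0.15 to 0.14 with 1 left out. In the genotype comparisons the replicate block rests on numbers that name different mice, and libraries sharing only a number had correlated deviations of -0.272 to 0.452 (median 0.05, 33 pairs). In the no-filter fit of the Cr2 split the median of all genes shifted to -0.12.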
